A study of Mus musculus with 3 samples.

Results

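The immediate-early AP-1, Egr1 and Myc genes were followed in R1, an established line of mouse embryonic stem (ES) cells. The group held 10 genes, Fos, Fosb, Fosl1, Jun, Junb, Jund, Egr1, Ier2, Atf3 and Myc, out of 18193 genes on the array, and its members were all probe sets that the platform annotation pairs with these symbols. The annotation gave 13 such probe sets, of which 0 were shared with another gene. Undifferentiated R1 cells received BMP4 (20 ng/ml) or noggin (100 ng/ml) over 4 h, or were left untreated, and each condition was hybridised to 1 Affymetrix array, 3 arrays in all. BMP4 is a bone morphogenetic protein, a secreted ligand that acts through SMAD proteins, and noggin binds such ligands outside the cell and blocks their access to receptors. All 3 arrays carried cells of the same line in the undifferentiated state, and the medium, its serum, any feeder cells and the time at which untreated cells were taken are not given in the sources used here. Values are log2 RMA values, so a difference of 1 is a 2-fold difference. With 1 array per condition there is no replicate error and no test, and only the size of a difference can be given.

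Immediate-early genes are transcribed within minutes of a growth factor, serum or stress signal without new protein synthesis, since their promoters are held ready by factors such as SRF with its ternary complex partners and CREB, which ERK and other kinases switch on. Fos and Jun family proteins pair through leucine zippers to form AP-1, EGR1 is a zinc finger activator, and MYC pairs with MAX and drives growth genes. Their transcripts are short lived, and in ES cells the ERK signal of autocrine FGF4 and the STAT3 signal of LIF are known inputs to several of them.

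The labels were checked with Id1, Id2 and Id3, direct SMAD targets that encode inhibitors of basic helix-loop-helix factors. BMP4 minus untreated was 2.76 for Id1, 4.10 for Id2 and 3.58 for Id3, and noggin minus untreated was −0.19, −0.49 and −0.26 for the same 3 genes. A gene was represented by its probe set with the highest mean, and for 11594 genes it exceeded, on at least 1 array, a floor of 3.44, set at the median of the whole table. All 8 ES cell markers lay above the floor, and the differences of their 11 probe sets above it ran from −0.03 to 0.31 for BMP4 minus untreated and from −0.11 to 0.04 for noggin minus untreated. Of 10 fibroblast markers 6 lay above the floor, with BMP4 minus untreated between −0.55 and 0.02. Of 8 trophoblast and endoderm markers 5 did, with Gata6 highest, at 0.52 in its representative probe set and 0.90 in another. With noggin the same probe sets of Gata6 gave 0.15 and 0.44. The fibroblast markers ran from −0.31 to 0.22 with noggin, and the trophoblast and endoderm markers from −0.15 to 0.44. Col1a1, Lum, Fap, Cdx2, Gata4 and Afp were below the floor on all 3 arrays, whereas Col1a2, Thy1, Pdgfrb, Postn, Dcn and S100a4 among the fibroblast markers and Krt8, Krt18, Sox17, Dab2 and Gata6 among the others exceeded it on at least 1. Bacterial poly-A spike transcripts, which enter a sample ahead of the labelling step, had lower values on the BMP4 than on the untreated array in 24 of 24 probe sets (median −0.63), and with noggin in 23 of 24 (median −0.18). These probe sets read only the Dap, Lys, Phe and Thr transcripts, so they are repeat readings and not independent ones. The 18 hybridisation spike probe sets, whose transcripts are added later, had medians of 0.01 with BMP4 and −0.01 with noggin. The part of the poly-A shift in the values below was not tested.

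Of the 10 genes, 6 were above the floor, namely Fos, Junb, Jund, Egr1, Ier2 and Myc, and each of the 6 was above it on all 3 arrays. The other 4, Fosb, Fosl1, Jun and Atf3, were below it on every array, as were 36.3% of all genes. In bulk RNA, fewer cells expressing a gene and less RNA in each cell cannot be told apart. Levels of different probe sets depend on their probes and are not compared with each other here.

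**Figure D1:**
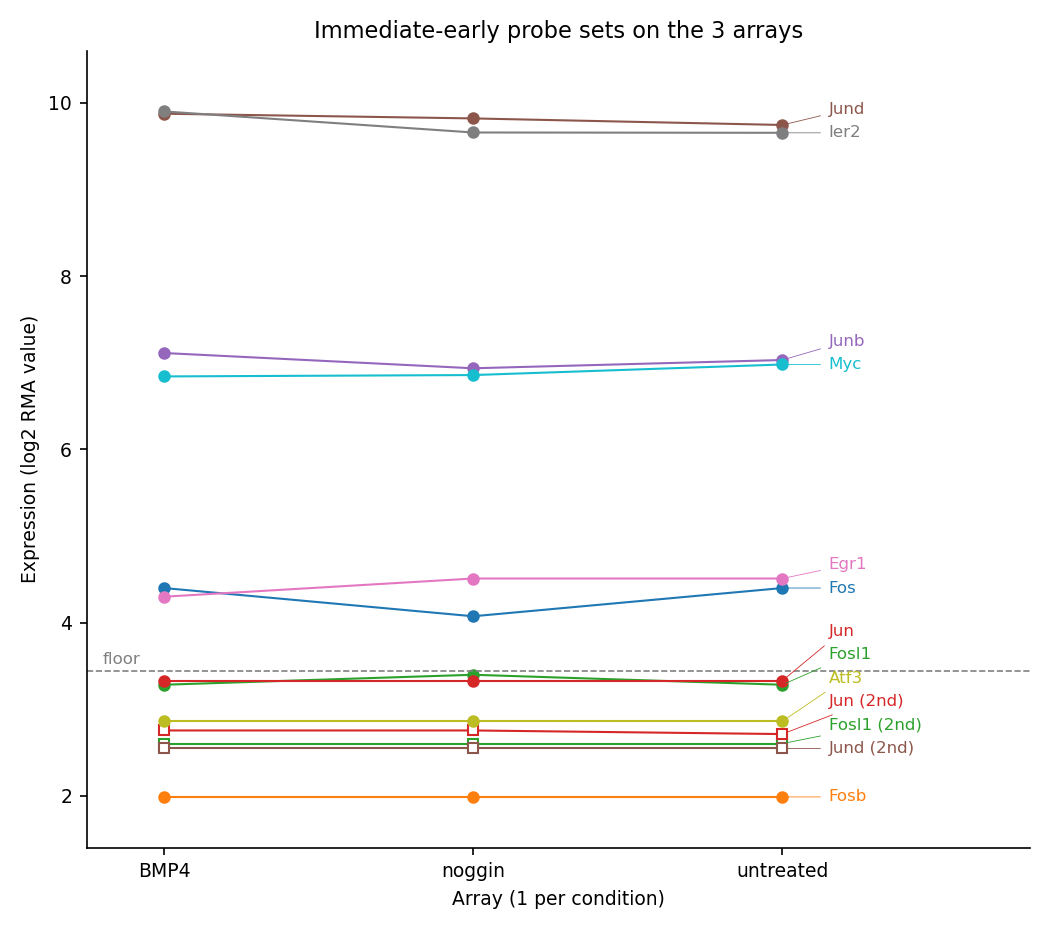
Log2 RMA value (vertical axis) of the 13 probe sets of the 10 immediate-early genes on the BMP4, noggin and untreated arrays (horizontal axis, 1 array each). Filled circles are the probe sets that represent a gene, open squares are second probe sets, lines only link the points of a probe set, and the dashed line is the floor of 3.44. Fos, Junb, Jund, Egr1, Ier2 and Myc lie above the floor, with the widest range, 0.33, for Fos.

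Fos encodes the founding FOS subunit of AP-1, and its promoter is a classic sensor of ERK and of cyclic AMP. Its only probe set, 1423100_at, measured 4.40 with BMP4, 4.07 with noggin and 4.40 without treatment. The BMP4 and untreated values were exactly equal, and the noggin array was the low one. Noggin minus untreated was −0.33, or 0.798 times the untreated value, and BMP4 minus noggin was 0.33. The within-gene SD of noggin minus untreated, taken over probe sets that read the same gene, was 0.11 for 5139 genes. Such an SD comes from the same arrays and does not measure the spread between repeat cultures or arrays. Fos had the largest difference with noggin among the 6 members above the floor. For noggin minus untreated, 149 of the 11594 genes above the floor (1.29%) lay further from 0 than Fos. For the rest of the 6 this share ran from 16.2% (Myc) to 63.0% (Egr1). Genes near the level of Fos differed more widely between these arrays than genes at large. Of the 1773 genes whose untreated value was within 0.5 of that of Fos, 2.82% lay further from 0, and the central 95% of their differences ran from −0.31 to 0.22. The poly-A spikes also had lower values with noggin (median −0.18). The excess of 3′ over 5′ signal, a sign of RNA quality, was 1.88 for Tfrc on the noggin array, against 1.51 on the untreated one, 0.37 against 0.32 for Actb and 0.10 against 0.06 for Gapdh. The lowest 5% of values lay below 1.60 with noggin, against 1.82 without treatment. The part of these values in the Fos difference was not tested.

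Fosb and Fosl1 encode the FOSB and FRA1 relatives of FOS. The single Fosb probe set measured 1.99 on all 3 arrays. Of the 2 probe sets of Fosl1, one measured 3.28 with BMP4, 3.40 with noggin and 3.28 without treatment, and the other 2.60 on each array. All these values were below the floor, so they bound the signal and say nothing on direction.

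Junb and Jund encode the JUN family subunits that often oppose JUN, Junb as an inducible gene and Jund as a steadily expressed one. The only probe set of Junb measured 7.11 with BMP4, 6.94 with noggin and 7.03 in untreated cells. It was thus the one gene of the 6 that lay above its untreated value with BMP4 (0.08) and below it with noggin (−0.10). Both steps were smaller than the within-gene SDs of 0.13 and 0.11, and BMP4 minus noggin was 0.18, against a within-gene SD of 0.16. Jund, read by 1449117_at, measured 9.87 with BMP4, 9.82 with noggin and 9.74 in untreated cells. Both treated arrays were above the untreated one, by 0.13 and 0.08. Its second probe set, 1440265_at, measured 2.55 on all 3 arrays, far below the floor, so Jund rested on 1 informative probe set.

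Jun, the gene of the JUN subunit itself, was below the floor in both of its probe sets. One measured 3.33 on every array, and the other 2.75 with BMP4, 2.75 with noggin and 2.71 without treatment. Atf3, a stress-induced bZIP gene whose product pairs with JUN proteins, measured 2.86 on all 3 arrays. Of the 13 probe sets of the group, 5 had the same value on the 3 arrays, and all 5 were below the floor. RMA can return equal values where true differences are small, and 26.1% of all probe sets had 3 equal values.

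The start regions of the AP-1 genes that lay above the floor are printed because Fos and Junb were the members whose BMP4 and noggin values stood furthest apart within AP-1, and Jund is their steady relative. They come from RefSeq (GRCm38.p6) and hold 250 bases before and 50 after the annotated gene start, 5′ to 3′ on the strand of the gene: Fos at chr12:85473640-85473939 (plus strand), Junb at chr8:84978699-84978998 (minus strand) and Jund at chr8:70697489-70697788 (plus strand). Capitals mark TGACG, the core of the CREB and ATF site, and TATAAA, the TATA box.
Fos: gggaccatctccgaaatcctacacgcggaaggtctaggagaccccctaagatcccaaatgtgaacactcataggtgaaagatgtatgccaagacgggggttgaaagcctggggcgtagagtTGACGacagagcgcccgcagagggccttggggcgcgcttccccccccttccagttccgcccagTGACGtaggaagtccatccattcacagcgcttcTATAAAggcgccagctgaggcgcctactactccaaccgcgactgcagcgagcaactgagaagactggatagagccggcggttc
Junb: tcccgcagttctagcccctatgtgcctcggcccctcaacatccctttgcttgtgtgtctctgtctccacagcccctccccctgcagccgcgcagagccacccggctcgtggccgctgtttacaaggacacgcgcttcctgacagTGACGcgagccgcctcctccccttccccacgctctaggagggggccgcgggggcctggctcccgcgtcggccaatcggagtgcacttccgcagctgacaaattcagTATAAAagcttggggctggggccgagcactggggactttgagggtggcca
Jund: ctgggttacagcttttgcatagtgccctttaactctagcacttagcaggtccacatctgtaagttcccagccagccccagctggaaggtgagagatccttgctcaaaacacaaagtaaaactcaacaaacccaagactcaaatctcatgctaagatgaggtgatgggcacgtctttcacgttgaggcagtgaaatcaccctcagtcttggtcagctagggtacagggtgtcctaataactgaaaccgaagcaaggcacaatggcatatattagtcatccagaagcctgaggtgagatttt

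In Fos the letters TGACG covered bases −129 to −125 and −66 to −62 before the start, and TATAAA covered bases −33 to −28. In Junb TGACG covered bases −106 to −102, and TATAAA covered bases 1 to 6 after the annotated start. The Jund window held neither. A search of both strands found TGACG in 4 of the 6 members with an entry (Atf3, Fos, Fosb and Junb), against 20.8% of 32851 start regions of the same length, and TATAAA in 2 of 6, against 13.6%. GGCGCC, a GC-rich element known from BMP-responsive enhancers, was found in Fos and Fosb, against 11.9% of start regions, and directly followed TATAAA in Fos. The EGR site GCGNGGGCG was found in Fosb, against 5.55%. None of the 6 windows held the full CREB site TGACGTCA (1.79% of start regions), which contains TGACG, the AP-1 site TGANTCA (7.81%), the CArG box bound by SRF (1.63%), the SMAD palindrome GTCTAGAC (0.213%) or the E-box CACGTG (7.15%). These matches describe letters in a window and were not tied to any value. Bases beyond the 250 before and 50 after the annotated start were not searched. A site missing from a window may therefore lie elsewhere in the gene's control regions.

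Egr1, the zinc finger gene that ERK switches on through SRF, measured 4.30 with BMP4, 4.51 with noggin and 4.51 in untreated cells. The noggin and untreated values were exactly equal, and the BMP4 array was the low one, by 0.21 on the log2 scale. That was the reverse arrangement to Fos, which was low on the noggin array alone. Exact ties were common, with 39.6% of genes above the floor equal for BMP4 minus untreated and 37% for noggin minus untreated. For BMP4 minus untreated, 6.30% of genes lay further from 0 than Egr1, and of the 1799 genes whose untreated value was within 0.5 of it 7.28% did. Of its paralogues, Egr2 was below the floor in both probe sets, Egr3 measured 4.47 with BMP4, 4.55 with noggin and 4.47 without treatment, and Egr4 measured 4.23, 4.44 and 4.23 in that order. Nab1 and Nab2, which encode corepressors that bind EGR proteins, differed by −0.06 and 0.00 with BMP4 and by 0.06 and 0.00 with noggin. Of the 6 EGR1 corepressor and target genes above the floor, 0 were higher, 2 lower and 4 equal with BMP4. With noggin 1 was higher, 2 lower and 3 equal. Over all genes above the floor, 24.8% were higher, 35.6% lower and 39.6% equal with BMP4. The shares with noggin were 26.8%, 36.1% and 37%.

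Ier2, a growth factor-induced gene that encodes a nuclear protein, had the largest difference from untreated cells among the 6 with BMP4. It measured 9.90 with BMP4, 9.66 with noggin and 9.65 in untreated cells. The BMP4 array was the high one, by 0.25 or 1.19-fold, and the noggin and untreated values differed by 0.0037. For BMP4 minus untreated, 525 genes (4.53%) lay further from 0 than Ier2, and of the 775 genes whose untreated value was within 0.5 of it 3.10% did. For the rest of the 6 the share of all genes ran from 6.30% (Egr1) to 60.4% (Fos). The within-gene SD of BMP4 minus untreated was 0.13. Every poly-A spike probe set, 24 of 24, had a lower value on that BMP4 array.

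Myc, whose protein drives growth and biosynthesis genes and helps hold ES cells undifferentiated under LIF, measured 6.84 with BMP4, 6.86 with noggin and 6.98 in untreated cells. Both treated arrays were lower than the untreated one, by 0.14 and 0.12 on the log2 scale, and they differed from each other by 0.02. These 2 differences share the untreated array. Its single probe set, 1424942_a_at, has a suffix that marks probes shared by transcripts of the same gene.

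**Figure D2:**
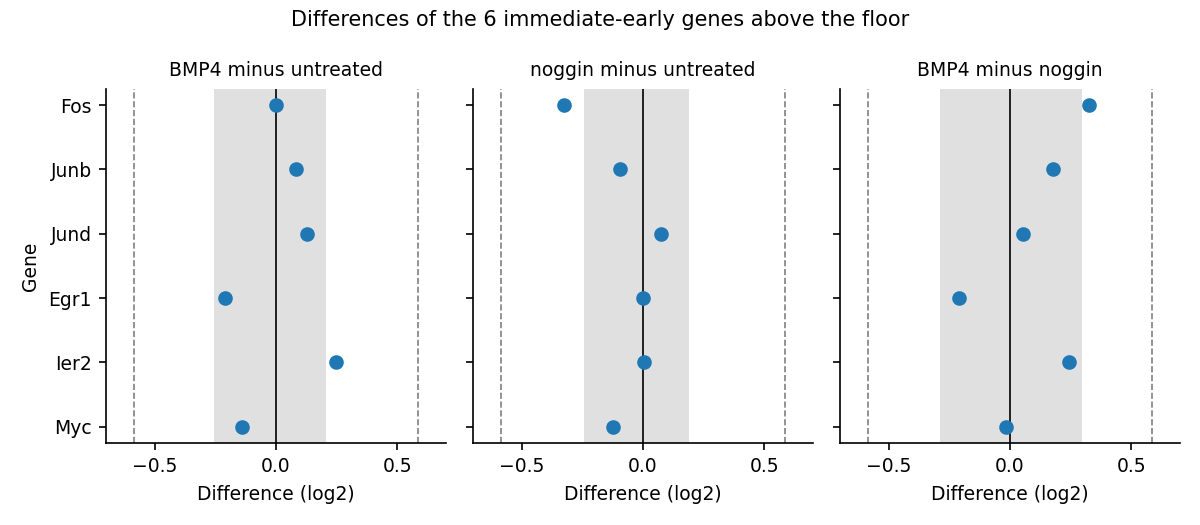
Difference in log2 RMA value (horizontal axis) of the 6 genes above the floor (vertical axis) for BMP4 minus untreated, noggin minus untreated and BMP4 minus noggin. Grey bands hold the central 95% of all 11594 genes above the floor, and dashed lines mark 1.5-fold. Ier2 at 0.25 lies outside the band in the first panel, and Fos at −0.33 and 0.33 lies outside it in the second and the third.

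The first comparison asks how these transcripts stood after 4 h of added BMP4. No earlier time was measured with BMP4 or noggin, so a change that had passed by 4 h would not be seen. With BMP4, 3 of the 6 genes were higher than in untreated cells (Ier2, Jund and Junb), 2 were lower (Egr1 and Myc) and Fos was equal, with a median difference of 0.04. Over all genes above the floor 24.8% were higher, 35.6% lower and 39.6% equal, with a median of 0.00. The number of the 6 past 1.5-fold in either direction was 0, against 0.276% of all genes, and past a lower limit of 0.32 in either direction it was also 0, against 2.26%. The central 95% of all genes ran from −0.25 to 0.21, and Ier2 was the member outside it.

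The second comparison asks how they stood after 4 h with the antagonist. With noggin, 2 were higher (Jund and Ier2), 3 were lower (Fos, Myc and Junb) and Egr1 was equal, with a median of −0.05 beside 0.00 for all genes, of which 26.8% were higher, 36.1% lower and 37% equal. Past 1.5-fold there were 0, against 0.0776% of all genes, and past 0.32 there was 1, Fos, against 1.35%. The central 95% of all genes ran from −0.24 to 0.19, and Fos was the member outside it.

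The third sets the 2 treatments against each other. BMP4 minus noggin was above 0 for Fos, Ier2, Junb and Jund and below 0 for Egr1 (−0.21) and Myc (−0.02), with a median of 0.12, against 0.00 for all genes, of which 33.1% were higher, 34.1% lower and 32.9% equal. Past 1.5-fold there were 0, against 0.518% of all genes, and past 0.32 there was 1, Fos, against 3.82%. Because the 3 comparisons are built from 3 arrays, any of them follows from the other two.

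By a rule of likeness, the distance over BMP4 minus untreated and noggin minus untreated on the 3 arrays, the genes nearest to Fos, the member with the widest range, were Bet1, Hace1, Platr10, Serpinb6e and Itpr2. Bet1, a SNARE gene of vesicle traffic, measured 6.16 with BMP4, 5.83 with noggin and 6.16 without treatment. Itpr2, an IP3 receptor gene of calcium release, measured 3.45, 3.11 and 3.45 in the same order, below the floor with noggin. Altogether 136 other genes lay within 0.1 of Fos on this distance.

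Of 30 other immediate-early genes 29 were above the floor. With BMP4 7 were higher, 8 lower and 14 equal, beside 24.8%, 35.6% and 39.6% of all genes, with a median of 0.00. Ccn2, the matricellular connective tissue growth factor gene, was the 1 gene past 1.5-fold higher, against 0.276% of all genes past it in either direction. It measured 6.97 with BMP4, 6.02 with noggin and 5.89 in untreated cells. Klf10, a zinc finger gene known as a TGF-beta early response gene, measured 8.45 with BMP4, 8.09 with noggin and 8.10 in untreated cells. Ccn1, a relative of Ccn2, was higher by 0.34 with BMP4 and by 0.34 with noggin in its representative probe set, and by 0.42 and 0.00 in another. Lowest with BMP4 were the kinase gene Sgk1 at −0.32 and Ier3, a stress-responsive gene, at −0.20. With noggin 7 were higher, 11 lower and 11 equal, beside 26.8%, 36.1% and 37% of all genes, and 0 passed 1.5-fold, against 0.0776%. Zfp36l1, which encodes an mRNA decay factor, was lowest at −0.21, and its other probe set gave 0.10. The same shares of all genes apply to the lists below. Dusp1, a MAP kinase phosphatase gene, measured 8.93 with BMP4, 8.59 with noggin and 8.78 in untreated cells. Junb had the same order of arrays, as did Zfp36l1, Jdp2, Nanog, Id1, Id2 and Id3 among others. The share of all genes with this order was not counted.

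Among the bZIP partners of AP-1, 12 of 15 were above the floor. With BMP4 3 were higher, 1 lower and 8 equal, and Jdp2, whose product dimerises with JUN and represses, had the highest representative value, 0.28. Jdp2 measured 6.56 with BMP4, 6.16 with noggin and 6.29 in untreated cells, and its other probe set was below the floor. With noggin 3 were higher, 5 lower and 4 equal; Batf3, a bZIP gene of dendritic and T cells, was lowest at −0.37, with a noggin value of 3.21 below the floor. The probe sets of Ddit3 and Atf4, stress-response bZIP genes, differed. For Ddit3 one gave 0.00 with BMP4 and 0.19 with noggin, and the other 0.36 with BMP4 and 0.00 with noggin. For Atf4 the representative one gave −0.09 with noggin and another −0.53. Of the 17 kinase, SRF and ternary complex genes upstream, 13 were above the floor and the differences from untreated cells of their representative probe sets lay between −0.15 and 0.10. Over all 33 probe sets of these genes above the floor they ran from −0.13 to 0.55 with BMP4, highest for the JNK1 gene Mapk8, and from −0.22 to 0.27 with noggin. The representative probe set of Mapk8 gave 0.00 on each comparison. Srf itself measured 6.33 with BMP4, 6.41 with noggin and 6.33 without treatment.

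All 11 genes of the MYC/MAX network were above the floor. With BMP4 3 were higher, 4 lower and 4 equal: Max, the obligate partner of MYC, was highest, at 8.32 with BMP4, 8.05 with noggin and 8.03 in untreated cells, and Mycn, the N-Myc gene, was lowest, at 8.29 with BMP4, 8.60 with noggin and 8.51 in untreated cells. The other probe sets of Mycn gave exactly 0.00 for BMP4 minus untreated. With noggin 5 were higher, 3 lower and 3 equal, with Mga, a repressor gene that pairs with MAX, highest at 0.28, and 0.00 in 2 other probe sets above the floor. Of 18 MYC target genes, 7 were higher, 6 lower and 5 equal with BMP4, and 7 higher, 5 lower and 6 equal with noggin, with medians of 0.00. Npm1, the nucleophosmin gene, measured 12.66 with BMP4, 12.64 with noggin and 12.64 in untreated cells. Cad, a pyrimidine synthesis gene, differed by −0.29 with BMP4 in its representative probe set and by 0.14 and 0.09 in 2 others.

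**Figure D3:**
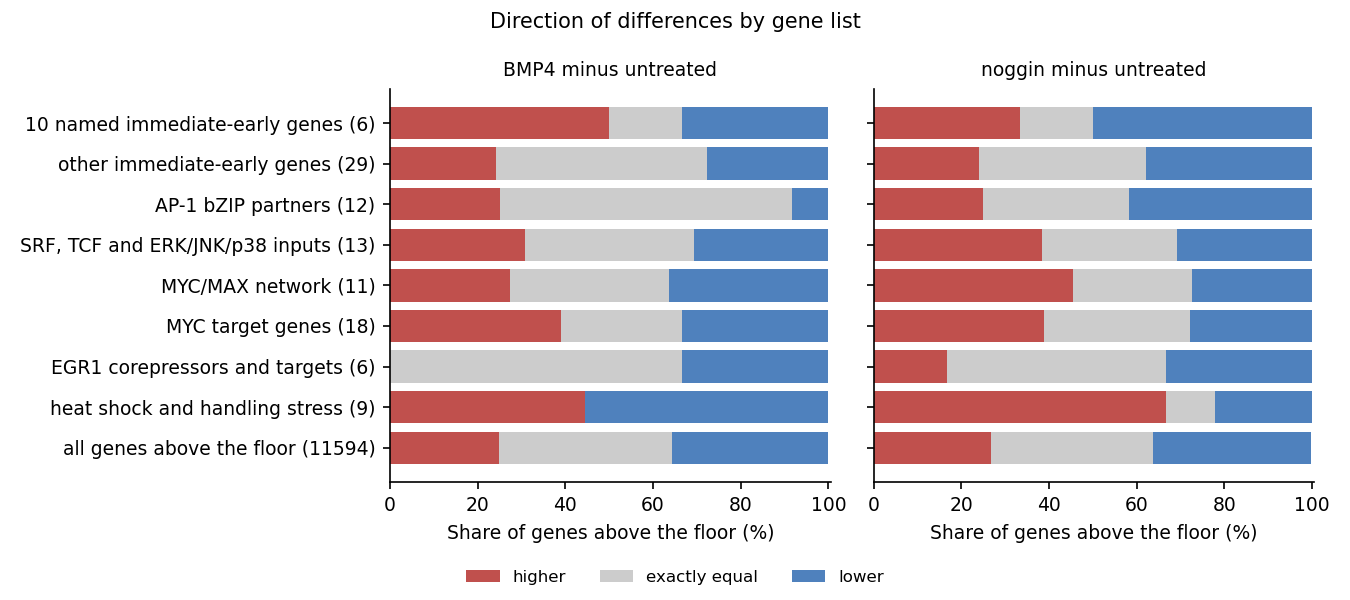
Share of genes above the floor (horizontal axis, percent) that were higher, exactly equal or lower for BMP4 minus untreated (left) and noggin minus untreated (right), by gene list (vertical axis, number of genes above the floor in brackets). The 6 immediate-early genes split 3 higher, 1 equal and 2 lower with BMP4 and 2 higher, 1 equal and 3 lower with noggin, and the bottom row holds all 11594 genes.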

How the data were processed

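Per the labels' protocols, total RNA of 3 cultures was column-purified, biotin-labelled by standard Affymetrix steps and hybridised to 1 Affymetrix array per condition. The authors deposited log2 expression values per probe set, made with RMA per the submitters' processing notes; its version and settings are not given in the sources used here. RMA equalises the arrays' distributions of probe intensities before it combines probes into probe sets, which hides a general shift in RNA content. The deposited probe set values still differed, with a median of 3.43 with noggin against 3.45 with BMP4 and 3.45 without treatment. The deposited values were used with no further normalization.

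Of 45101 probe sets, 64 were controls, 34945 carried 1 gene symbol, 932 several and 9160 none; the Entrez identifiers of all 10 members matched their RefSeq symbols. A gene stood on its probe set of highest mean and was kept where any array exceeded the median of all values. Differences, counts past 0.32 (log2), 1.5-fold and 2-fold and lists were computed with pandas 2.3.3 and numpy 2.4.6 in Python 3.11.15, and the arithmetic was checked on planted differences. The number of arrays limits the precision. Named were all members, some of the extreme members of each list, Id1, Id2, Id3, Klf4, Socs3 and Dusp5, and the 5 genes nearest to the widest-ranging member; the Egr, Nab, Srf, Dusp1 and Npm1 values and the markers below the floor were added for their roles. Values are of representative probe sets unless another is named; other probe sets were given for some genes. The level range of 0.5 was chosen after seeing the data. Srf, Fosl2 and Egr2 are in 2 lists. The members and lists were chosen with earlier results of these data known. Alternatives were other probe set rules, floors, centring, a loess trend (span 0.3, statsmodels 0.14.6) and other size limits.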

Additional observations from a re-analysis of the deposited data

How the results depend on the processing

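The median differences of the members moved by less than the within-gene SD in all 18 recomputations. The main medians (0.04, −0.05 and 0.12) were themselves smaller than those SDs (0.13, 0.11 and 0.16), so this measure could hardly have failed. The 69 recomputed values of single members also moved by less than the SD, by at most 0.06, with 0 changes of sign. Fos, Junb, Egr1, Ier2 and Myc have 1 probe set each, so the probe set rules could not move their values. Centring moves every gene of a comparison by the same amount. The count past 1.5-fold stayed at 0 under every other probe set rule, floor, centring and trend correction tried. At a limit of 2-fold it could only be 0 as well. At a limit of 0.32 (log2) it was 1 for noggin minus untreated and 1 when BMP4 was set against noggin, Fos in each. Centring the arrays on the median of kept genes gave medians of 0.06 with BMP4 and −0.04 with noggin against untreated cells, and 0.13 between the 2 treatments. With no floor, which adds the 4 genes below it, all 3 medians were 0.00; so was that of noggin minus untreated with plain-suffix probe sets alone, which leaves out Myc. No paired analysis was possible because each condition has 1 array, and leaving out an array leaves no comparison. For the 4 genes below the floor the signal limits what can be read.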

Other observations

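Dusp5, Klf4 and Socs3 share inputs with the immediate-early genes through ERK or LIF signalling. Dusp5, an ERK-specific phosphatase gene that ERK itself induces, measured 7.09 with BMP4, 6.09 with noggin and 5.98 in untreated cells. BMP4 minus untreated was 1.11 in its only probe set, where 0.276% of all genes passed 1.5-fold in either direction. The part of ERK signalling in this difference was not tested. Klf4, a naive pluripotency factor gene and a LIF target, measured 10.38 with BMP4, 10.24 with noggin and 10.26 in untreated cells, and its other probe set 8.60 on each array. Socs3, the feedback inhibitor gene of LIF signalling, measured 10.36 with BMP4, 10.23 with noggin and 10.48 in untreated cells, and its 2 other probe sets differed from the untreated array by no more than 0.05 in size.

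Heat shock genes, many of which are induced by stress as Fos and Jun are, were also described. With BMP4 4 of the 9 above the floor were higher and 5 lower, from Hspa1b at −0.27 to Hspa8, the constitutive chaperone gene, at 0.09, and the other 2 probe sets of Hspa1b gave exactly 0.00. With noggin 6 were higher, 2 lower and 1 equal, between −0.04 and 0.03, but another probe set of Hspa8 gave −0.38. Of all genes above the floor, 26.8% were higher with noggin, 36.1% lower and 37% equal, and with BMP4 24.8%, 35.6% and 39.6%. Hspa1a, an inducible HSP70 gene as Hspa1b is, measured 2.91 on all 3 arrays, below the floor. Hspa1b was above the floor, at 6.38 with BMP4, 6.65 with noggin and 6.65 in untreated cells.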
